A study of Homo sapiens with 8 samples.

Results

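The baseline map of CTCF in HT1080 cells is described here. HT1080 is a human fibrosarcoma line, a tumor of connective tissue, which the labels give as ras +. The map is the whole list of peaks found in untreated cells, in which 2 chromatin immunoprecipitation (ChIP) libraries made with a polyclonal anti-CTCF antibody were set against 2 input libraries, that is, chromatin sequenced without immunoprecipitation. The 4 deposited lists add up to 103889 regions, in which a site can be counted in more than 1 list. The list of untreated cells holds 47470 peaks, and every peak of it was kept. Of these, 47442 lay on chromosomes 1 to 22 and X and were described further, and 28 lay on other sequences.

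The series comprised 8 libraries, 2 of ChIP and 2 of input for untreated cells and the same for cells given the curaxin CBL0137 for 6 h. Treated cells were not examined here. The list pools both replicates, so no value below has an error between replicates and no test between groups was made. Intervals are Wilson intervals for shares and order-statistic intervals for medians, at 95%, and cover counting error alone. The depth of each library was not used here.

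CTCF is a DNA-binding protein with a row of zinc fingers that reads a long, directional sequence motif. It is known as a boundary and insulator protein: cohesin extrudes loops of chromatin until it meets bound CTCF, and the loops that remain often end at motifs that point at each other. CTCF is also known for enhancer insulation at the imprinted H19-IGF2 locus, for boundaries inside the HOX clusters, and for the choice of promoters in the protocadherin clusters.

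The motif was searched by its 12-base core, CCANNAGNNGGC, in which each N stands for a choice between a pair of bases. The core was looked for on both strands within 400 bp around the centre of each peak, with at most 1 mismatch. The strongest peak that lay outside genes and carried the exact core is shown as an example, although its core lay further from the centre than is usual. It spanned chr3:15160051-15160450 (hg19) and was 94.2-fold enriched over input. Its middle 300 bases, chr3:15160101-15160400 on the plus strand, are printed with the core in capitals.
chr3 peak: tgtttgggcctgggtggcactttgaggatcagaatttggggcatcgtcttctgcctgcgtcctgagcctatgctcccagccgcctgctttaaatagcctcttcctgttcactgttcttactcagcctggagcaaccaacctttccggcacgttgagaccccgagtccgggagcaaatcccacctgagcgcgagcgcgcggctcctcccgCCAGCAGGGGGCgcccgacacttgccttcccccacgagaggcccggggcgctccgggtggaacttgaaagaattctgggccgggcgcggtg

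Examples of cores with at most 1 mismatch follow, chosen for that match from both rankings of peaks. The first 3 belong to peaks among the 12 with the highest fold enrichment, of which others had 2 or 3 mismatches, and the last 3 to peaks among the 10 with the smallest deposited p-value, whose fold enrichment was below the median of all peaks. Each is read 5′ to 3′ on the strand of its core with 9 bases on either side and the core in capitals.
chr14:107020225-107020236, minus strand: gccctcgggACACCAGGGGGCgctcaggac
chr1:110739707-110739718, plus strand: actgcttttCCAGCAGGGGGAgccttcagc
chr15:85131367-85131378, plus strand: cacacataaCCTGTAGGTGGCaccagagca
chr1:95509152-95509163, minus strand: ctcatcctgCCACCAGGTGGCagtgcactg
chr1:150952113-150952124, plus strand: ctcaaggggCCACTAGGGGGCtcgagactc
chr1:112290042-112290053, minus strand: ctggaaataCCACCAGGGGGCgtgtgtagc

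The core was present in 49.0% of peaks (48.6 to 49.5%), against 2.06% of all 400-bp windows of the sequenced genome. Without a mismatch it was present in 13.9% of peaks and in 0.149% of windows. It sat close to the middle: 90.3% of the cores lay within 50 bp of the peak centre, at a median distance of 15 bp. The cores showed little preference for a strand, with 50.7% on the plus strand (50.02 to 51.3%). Most cores in the sequence were not near a peak centre. Counted per peak, 16.0% of the 156040 matches in the genome fell in the 400-bp window of a peak. A match in such a window is not shown to be bound, and one outside is not shown to be free. A single core was usual, and 1501 peaks (3.16%) held at least 2.

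Peaks with a better core were stronger. Peaks with an exact core had a median fold enrichment of 35.2 over input, those with 1 mismatch 31.1, those with 2 mismatches 26.4, those with 3 mismatches 22.1 and the 532 peaks with 4 or more 17.2. Width followed the same order, from a mean of 365 bp with an exact core to 238 bp with 4 or more mismatches. When peaks were divided by fold enrichment into 10 groups of equal size, the share with the core rose at every step, reaching 66.3% (64.9 to 67.6%) in the group with the highest values from 25.1% (23.9 to 26.4%) in that with the lowest. The exact core rose from 3.65% to 24.45%. The mean width rose from 160 bp to 379 bp. Even the lowest group, with fold enrichments of at most 13.6, carried the core more often than the 2.06% of genome windows.

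**Figure D1:**
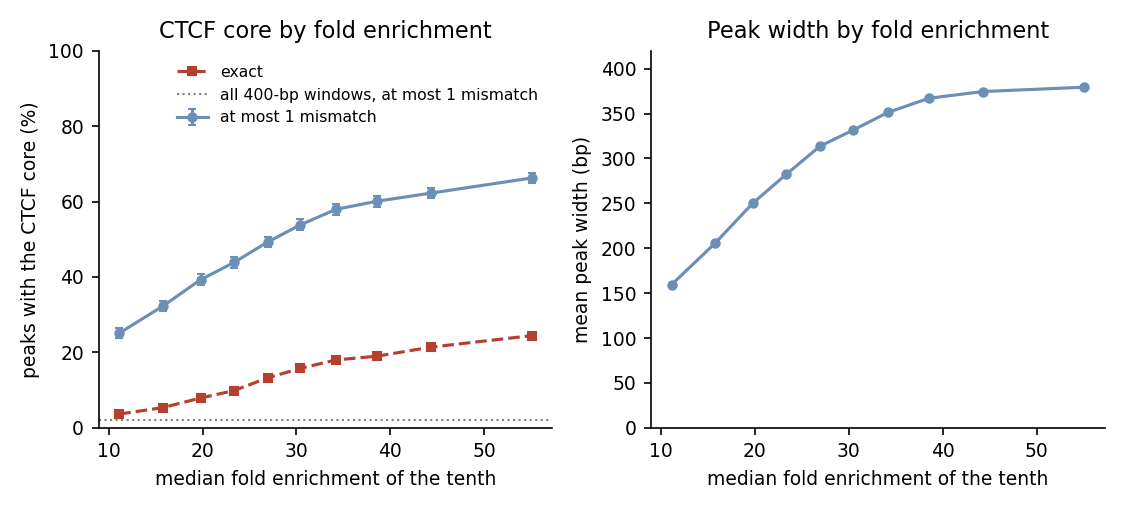
Left, percent of peaks with the 12-base CTCF core (circles, at most 1 mismatch, bars are Wilson 95% intervals; squares, exact core) against the median fold enrichment over input in 10 groups of peaks of equal size; the dotted line is the 2.06% of all 400-bp genome windows. Right, mean peak width in bp for the same groups. The core share rises with fold enrichment from 25.1% to 66.3%, and the width from 160 to 379 bp.

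Fold enrichment spanned a wide range. The median was 28.7, the 10th percentile 13.6 and the 90th percentile 48.5. At least 50-fold enrichment was found in 4070 peaks (8.58%), at least 70-fold in 356 and at least 90-fold in 19. Peaks were short, between 100 and 1450 bp, and together covered 14.3 Mb, or 0.505% of the sequenced bases. The deposited p-values all lay at or below 9.999e-06, although the methods of the study state a looser cutoff, and which cutoff made the list is not given in the sources used here.

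The strongest peak, at chr17:65821401-65821650, was enriched 119.7-fold. It was centred 93 bp upstream of the start site of BPTF, which encodes a subunit of the NURF chromatin remodeler, in DNA with 75.2% GC, and its best match to the core had 2 mismatches. The second, 100.7-fold, lay in an intron of DPYSL2, a gene for a protein of axon guidance, and held an exact core. The third, 100.6-fold, lay in an intron of CSNK1G2, a casein kinase gene, at chr19:1945951-1946300. Next came a peak 398 bp inside CLPB, which encodes a mitochondrial disaggregase (99.3-fold), a peak in an intron of ZNF638 (99.2-fold) and a peak outside genes on chromosome 14 (98.1-fold). The promoter of COMTD1 was enriched 97.9-fold, with a peak centred 88 bp upstream of its start site. The remaining peaks of the 12 lay 18.2 kb from the start of AQP8, an aquaporin gene (97.2-fold), in an intron of SLC6A17, a transporter gene (95.9-fold), 19.6 kb upstream of RBSN (94.2-fold), 101 kb from IER5 (93.3-fold) and 12.8 kb upstream of ZSCAN2 (93.0-fold). These 12 peaks were between 250 and 550 bp wide.

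Ranking by the deposited p-value gave other peaks. The 10 peaks with the smallest p-values all lay on chromosome 1, which held 9.11% of all peaks, and none of them was among the 10 with the highest fold enrichment. Their fold enrichment was between 13.7 and 33.4 and their width between 450 and 1050 bp. The smallest p-value, 1.06e-32 as deposited, belonged to a peak of 21.2-fold in an intron of ALG14, a gene of protein glycosylation, at chr1:95508801-95509450. Of the 100 peaks with the smallest p-values, 43 lay on chromosome 1 and 0 on X, against 18 and 7 of the 100 with the highest fold enrichment. The lists of 1000 shared 7 peaks. Across all peaks the p-value went with width (Spearman 0.88 between width and -log10 p) more than with fold enrichment (0.55), as a description of a single list of 47442 peaks.

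Distances between neighbouring peaks covered a wide range. The median distance from the end of a peak to the start of the next was 29.9 kb (29.5 to 30.4 kb), over 47419 pairs on the same chromosome. The middle 50% of distances ran from 10.65 to 70.7 kb, and the mean, 61.6 kb, was pulled up by a long tail. The spread was large, with an SD of 3.33 times the mean. Close pairs were common: 2.79% of neighbours were under 1 kb apart, 13.8% under 5 kb and 23.8% under 10 kb. At the other end, 16.3% were at least 100 kb apart, 327 pairs at least 500 kb and 69 at least 1 Mb, unsequenced bases included. The nearest neighbour on either side was at a median of 13.85 kb, and 31 peaks had no other within 500 kb. The smallest gap was 200 bp, and all positions in the list fall on a 50-bp grid.

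**Figure D2:**
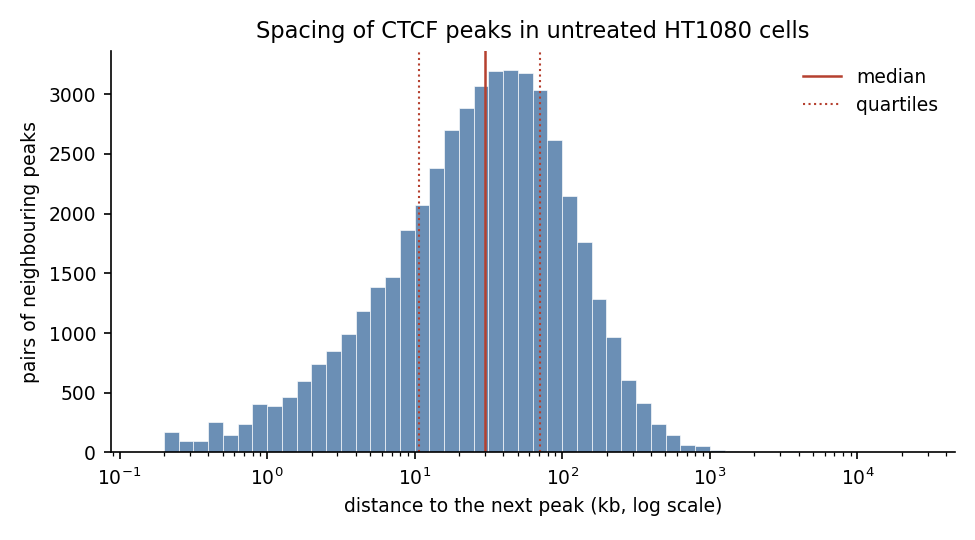
Number of pairs of neighbouring peaks by the distance between them (kb, log scale), in 10 bins for each factor of 10; the solid line marks the median, 29.9 kb, and the dotted lines the quartiles, 10.65 and 70.7 kb. The distances form a single broad hump with a tail of close pairs under 10 kb.

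Crowded and isolated peaks differed little in strength and in motif, and more in width and base composition. Peaks with a neighbour within 1 kb had a median fold enrichment of 28.1, and those at least 100 kb from any other 26.6. The core was present in 48.0% (46.1 to 49.9%) and 49.5% (47.4 to 51.7%) of them. Wide peaks of at least 500 bp made up 10.75% of the first and 1.595% of the second. The GC content of the 500 bp around the centre was 50.6% and 41.0%, against 40.9% for the whole genome.

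When peaks at most 5 kb apart were joined into runs, 35330 peaks stood alone, 4608 runs held 2 peaks, 701 held 3, 159 held 4, 25 held 5, 3 held 6 and 2 held 7. The runs of 7 lay in the gamma protocadherin cluster (chr5:140718101-140743800, 0 of 7 peaks with a core) and inside NRG1, the neuregulin 1 gene of chromosome 8, where 4 of 7 peaks carried a core. The runs of 6 covered TWF2 on chromosome 3, a stretch of chromosome 3 without protein-coding genes, and CRIP1 with TEDC1 on chromosome 14.

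The direction of the core was compared between neighbours. In 11578 pairs both peaks held a core. A pair was taken as convergent when the left core lay on the plus strand and the right on the minus strand, so that they point at each other, and as divergent in the reverse case. Within an unbroken row of such peaks convergent and divergent pairs alternate, and overall their shares were close, 23.7% (22.9 to 24.5%) and 25.9% (25.1 to 26.7%). Their shares differed between distances. Under 1 kb, convergent pairs made up 19.2% (15.3 to 23.9%) and divergent pairs 20.5% of 317 pairs. Convergent pairs made up 17.8% (15.8 to 19.9%) at 1 to 5 kb, 19.8% (18.4 to 21.3%) at 5 to 20 kb, 24.8% (23.6 to 26.0%) at 20 to 100 kb, 31.65% (29.5 to 33.9%) at 100 to 500 kb and 38.7% (29.5 to 48.9%) in the 93 pairs at 500 kb or more. Divergent pairs made up 27.7%, 28.9%, 26.0%, 20.4% and 19.4% of the classes from 1 kb upwards. Between 1 and 20 kb divergent pairs were thus the more frequent, and from 100 kb convergent pairs. Under 1 kb, 60.3% of pairs pointed the same way, against 41.9% at 500 kb or more. With exact cores alone the convergent share was 13.3% (10.4 to 16.8%) in 444 pairs under 20 kb, 23.3% in 420 pairs at 20 to 100 kb and 35.8% (28.5 to 43.8%) in 148 pairs at 100 kb or more. The divergent share of exact cores changed less, with 28.4%, 29.1% and 25% in the same classes. Pairs that follow each other share a peak, which these intervals leave out of account.

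**Figure D3:**
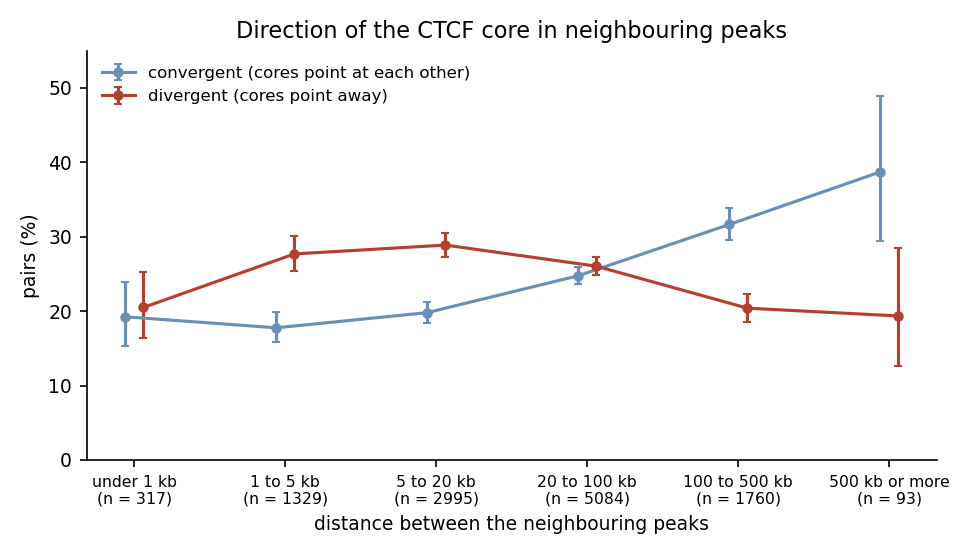
Percent of neighbouring peaks, both with a CTCF core, whose cores point at each other (convergent, blue) or away from each other (divergent, red), by the distance between the peaks; n is the number of pairs and bars are Wilson 95% intervals. The lines cross near 20 to 100 kb, with convergent pairs at 17.8% at 1 to 5 kb and 31.65% at 100 to 500 kb.

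Peak density followed gene density. Over the sequenced genome there were 16.7 peaks per Mb. Chromosome 19, the densest in genes, had 28.4 per Mb, chromosome 17 had 26.9, chromosome 20 had 23.6 and chromosome 22 had 23.1. The lowest were X with 9.19, chromosome 4 with 11.3 and chromosome 13 with 12.6, so that the extremes differed 3.09-fold. X lay apart from the trend, with 5.75 protein-coding genes per Mb against 4.06 on chromosome 4 and 3.37 on chromosome 13. Peaks on X also had the lowest median -log10 p, 7.93, with chromosome 4 next at 9.04, and the smallest mean width, 240 bp. Copy number and read depth of X were not examined. Its low density therefore cannot be read as fewer CTCF sites. Across the 23 chromosomes, peaks per Mb went with protein-coding genes per Mb (Pearson 0.83, Spearman 0.83) and with GC content (0.86 and 0.85). These are descriptions of chromosomes that share libraries and base composition, and gene density and GC content cannot be told apart here. Without chromosomes 17 and 19 the values for gene density were 0.74 and 0.78. Density rose less than gene number: chromosome 19 had 1.07 peaks per protein-coding gene and chromosome 13 had 3.75. The median distance between neighbours was 16.35 kb on chromosome 19 and 52.9 kb on X.

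**Figure D4:**
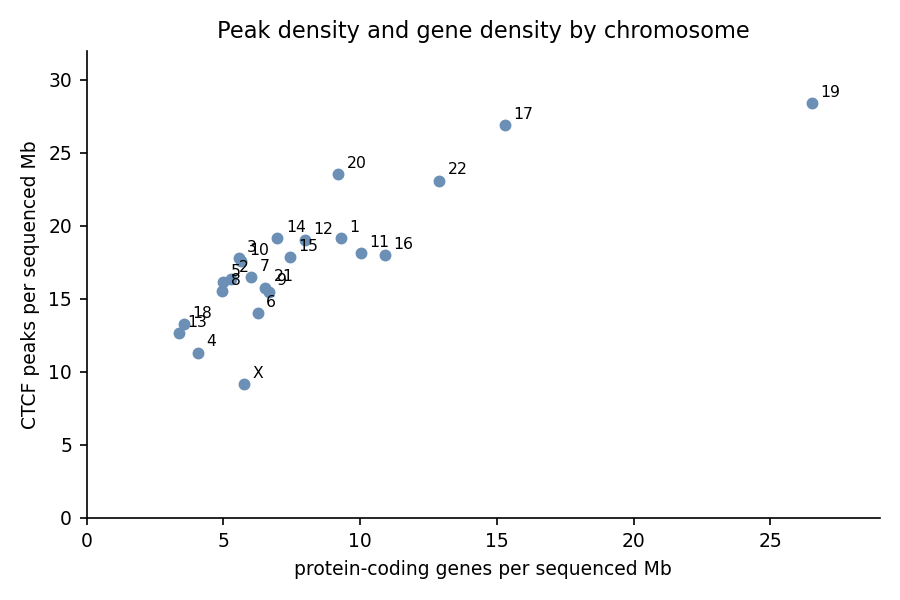
CTCF peaks per sequenced Mb against protein-coding genes per sequenced Mb, 1 point for each of chromosomes 1 to 22 and X, labeled by name. Peak density rises with gene density from chromosomes 13, 18 and 4 to chromosomes 17 and 19 (26.9 and 28.4 peaks per Mb). X lies lowest, at 9.19, although it has more genes per Mb (5.75) than chromosomes 13, 18 and 4. Copy number and read depth of X were not examined.

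In windows of 1 Mb the number of peaks ranged from 0 to 74. Of 2846 windows with at least 500 kb of sequence, the median window held 16 peaks (quartiles 9 and 22), 47 held none and 83 held at least 40. The variance was 6.04 times the mean. The 10% of windows with the most peaks held 22.4% of all peaks and the 10% with the fewest 1.49%. Windows without a protein-coding start site held a median of 6 peaks, those with 3 to 5 start sites 15, those with 11 to 20 start sites 24 and those with 21 or more 32.

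The 10 densest windows lay on chromosomes 5, 17, 1 and 19. The first, chr5:140000001-141000000, held 74 peaks and the 3 protocadherin clusters. It differed from the other 9 windows in that 52 of its peaks lay at promoters and 25.7% carried a core, against 3 to 19 promoter peaks and 43.1 to 56.9% with a core in the others. On chromosome 17 the window at 73 to 74 Mb (chr17:73000001-74000000) held 64 peaks, with GRB2, an adaptor of growth factor receptors, and SUMO2. The window chr17:7000001-8000000 held 60, the window with the HOXB cluster (chr17:46000001-47000000) held 58, and the window with COL1A1, a chain of type I collagen (chr17:48000001-49000000), held 56. On chromosome 1, 59 peaks lay in the window with LMNA, the gene of lamins A and C (chr1:156000001-157000000), and 59 in that with TNNT2, cardiac troponin T (chr1:201000001-202000000). On chromosome 19 the windows with JUND and with the CEACAM genes held 58 each, and the window with STK11, a tumor suppressor kinase gene, held 56.

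The clustered protocadherins are cell-surface proteins of neurons. In the alpha and gamma clusters they are encoded by rows of alternative first exons joined to shared last exons, and in the beta cluster by separate single-exon genes, each with a promoter of its own. Of the 53 genes, 43 (81.1%, 68.6 to 89.4%) had a peak within 1 kb of the annotated start site, against 16.8% of all 20098 protein-coding genes (16.3 to 17.3%). In the alpha cluster 19 peaks lay in 226 kb, in the beta cluster 16 in 198 kb and in the gamma cluster 20 in 182.5 kb. Their median fold enrichment was 21.8, 21.9 and 24.5, below the 28.7 of all peaks. Peaks with a core at most 1 mismatch away were few, 7 in alpha, 1 in beta and 2 in gamma, and all 7 in alpha lay on the plus strand, the strand of the genes.

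Many alpha peaks fell at one of 2 places of a gene. Within the span of the cluster, which begins at the start site of PCDHA1, peaks within 200 bp of a start site were found at 9 genes, PCDHA2 to PCDHA8, PCDHA10 and PCDHA12, with fold enrichments from 9.99 to 26.6. PCDHA1 had such a peak too, of 25.15-fold, centred just outside the span at -45 bp. A peak whose best core match had at most 2 mismatches lay 588 to 679 bp inside 7 genes, PCDHA2, PCDHA4, PCDHA5, PCDHA6, PCDHA8, PCDHA12 and PCDHA13, with fold enrichments from 23.03 to 37.3, and 6 genes had both. By distance from the annotated start, PCDHA9 and PCDHA11 differed. The only peak of PCDHA9 lay 544 bp inside (10.85-fold, 3 mismatches), and PCDHA11 had peaks 708 and 1383 bp inside. In sequence, the PCDHA9 peak and the PCDHA11 peak at 708 bp, read on the plus strand, share letters with the start site of PCDHA4. They may thus be the same kind of site at another distance, which was not tested. In the 7 inner peaks, which were chosen by their match to the core, 19 of the 30 bases printed were the same in all. They are printed with the core in capitals, on the plus strand of chromosome 5.
PCDHA2: tctcggtttCCTCTAGAGGGAgcatctgat
PCDHA4: tctcggtttCCACTAGAGGGCgcctcggat
PCDHA5: tcgcggtttCCGCTAGAGGGCgcgtcggat
PCDHA6: tctgtgtttCCACTGGAGGGCgcgtccgat
PCDHA8: tctcggtttCCGCTAGAGGGCgcgtccgat
PCDHA12: tctcattttCCTCTAGAGGGCgcttctgat
PCDHA13: actcgatttCCACTAGATGGCgcatccgat

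The core of PCDHA4, at chr5:140187229-140187240, and that of PCDHA13, at chr5:140262310-140262321, matched without a mismatch, that of PCDHA2 with 2 mismatches and the other 4 with 1. In PCDHA11 a similar core, with 1 mismatch, lay further in, 1383 bp from the start, in a peak of 13.1-fold.
PCDHA11: tcgcgttttCCACTAGAGGGAgcttctgat

 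At the 9 start sites the best match to the core had 2 to 4 mismatches, with 8 of the 9 on the plus strand. Placed by these matches, 2 of 30 bases were the same in all 9. The sites were not aligned in any other way, so this count does not measure how alike they are. In 5 of the 9 genes, PCDHA4 to PCDHA8, the match ended in the same 8 letters, and 3 of these are shown. The match of PCDHA2 lay on the minus strand, and the plus strand there holds the same letters. The matches of PCDHA3, PCDHA10 and PCDHA12 did not end in them.
PCDHA4, at the start site: ggtttggagCCACATGATGTCgctctttac
PCDHA7, at the start site: acatgatggCCACATGATGTCgctctttac
PCDHA8, at the start site: cttttgaagCCACATGATGTCgctgtctac

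In all 6 genes with both, the inner peak was the stronger. PCDHA11, which is not among them, went the other way, with 21.8-fold at 708 bp and 13.1-fold at 1383 bp. Among the 6, the values of the inner and the start-site peak were 37.3-fold against 17.5-fold in PCDHA12, 25.9-fold against 19.02-fold in PCDHA4 and 24.02-fold against 9.99-fold in PCDHA5. They were closest in PCDHA8, 30.1-fold against 26.6-fold. No replicate error is available for these differences.

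The HOX genes encode homeodomain factors that pattern the body axis, and lie in 4 clusters. Peaks were dense in each, 9.34 per 100 kb in HOXA, 5.49 in HOXB, 5.97 in HOXC and 6.11 in HOXD. The genome as a whole has 16.7 per Mb, not per 100 kb, a lower density than in any of the 4 clusters. A peak lay within 1 kb of the start in 8 of 39 genes (20.5%, 10.8 to 35.5%), a share whose interval includes that of all genes. Within 10 kb a peak lay in 31 of 39 (79.5%, against 48.3% of all genes). Neighbouring genes of a cluster can lie within 10 kb of the same peak, so the 31 are not separate sites. The 8 with a peak within 1 kb were HOXA4, HOXA5, HOXA6, HOXA10, HOXB5, HOXC5, HOXC10 and HOXD13, with the highest fold enrichment, 68.9, at HOXC10. In HOXA 10 peaks of 11.7 to 55.2-fold lay in 107 kb. The strongest was at the promoter of HOXA6 (chr7:27190301-27190800) and had no core. A core was found in 4 of them, all on the minus strand, on which the HOXA genes are read. The exact one lay outside genes, upstream of HOXA7, in a peak of 48.5-fold.
HOXA4, chr7:27169843-27169854: ccaggcgtcCCGGCAGGGGGCagcgccccc
HOXA5, chr7:27183535-27183546: gccctgcctCCAGCGGGTGGCgctcgagtc
upstream of HOXA7, chr7:27200757-27200768: aaacggcggCCAGCAGATGGCagtgtggct
HOXA10, chr7:27219525-27219536: gcgcagccgCCACGAGATGGCgcacttccg

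The imprinted locus of H19, a noncoding RNA, and IGF2, a fetal growth factor, held 10 peaks in 163 kb, with fold enrichments from 17.6 to 65.4. The strongest lay between the genes (chr11:2058101-2058500) and had no core. At the H19 end 3 peaks, of 37.7-, 29.96- and 46.4-fold, lay in annotated lncRNA genes. Inside the annotated spans of IGF2 and the overlapping gene INS-IGF2 there were also 3, of 17.6-, 47.1- and 42.1-fold, the last with an exact core. The first of these also lay within 1 kb of the start site of another gene, ENSG00000284779.
IGF2, chr11:2177863-2177874, minus strand: cgggtgcgaCCAGCAGATGGCatcagagcc

 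The list does not separate the parental chromosomes. The beta-globin genes, which are red cell genes, had no peak within 1 kb of a start in any of the 5 genes, and 6 peaks lay in the 280 kb spanned by their annotation, which includes a long transcript of HBE1.

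Over the whole genome, promoters held more peaks than their length and introns about as many. Promoters, taken as 1 kb on either side of a protein-coding start site, made up 1.30% of the genome and held 6.76% of peaks, 5.20 times their share. The 5′ untranslated regions held 3.46 times their share, coding exons 2.075 times, 3′ untranslated regions 1.65 times, introns of protein-coding genes 1.02 times, regions outside genes 0.855 times and lncRNA genes 0.762 times. In numbers, 20024 peaks lay in introns, 15196 outside genes, 5465 in lncRNA genes, 3207 at promoters, 1115 in coding exons, 1060 in 3′ and 251 in 5′ untranslated regions.

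Promoter peaks differed from other peaks in motif and base composition. The core was present in 34.1% of them (32.5 to 35.7%), against 51.2% of peaks outside genes (50.4 to 52.0%) and 49.3% of intron peaks (48.62 to 50.01%), and the exact core in 6.17%, 15.4% and 13.7%. In the sequence itself the order was the reverse, as 4.57% of 400-bp windows at promoters and 1.86% of those outside genes hold the core. Their GC content was 62.4%, against 44.8% outside genes. Their median fold enrichment was 30.85, against 29.9 outside genes, and 13.35% were at least 500 bp wide, against 6.66%. Peaks in 5′ untranslated regions resembled them, with 35.1% carrying a core. Of the promoter peaks 56.8% lay upstream of the start and 24.6% within 100 bp of it. Distances to the nearest start site were otherwise long, with a median of 39.2 kb, and 4.82% of peaks lay over 500 kb away.

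A promoter peak was found at 3381 of 20098 protein-coding genes, and the share differed between gene families. Ribosomal protein genes, which are active in growing cells, had one in 22 of 80 (27.5%, 18.9 to 38.1%), among them RPL38 at 55.1-fold and RPS4X at 34.8-fold with an exact core. ZNF genes, the large family of zinc finger factors, had one in 71 of 509 (13.9%, 11.2 to 17.2%). Olfactory receptor genes, used in the nose, had one in 4 of 414 (0.966%, 0.376 to 2.46%), at OR51D1, OR52N2, OR6J1 and OR3A2, and 14 of the 414 lie in the longest stretch without a peak. Hair keratin-associated (KRTAP) genes had one in 1 of 94, KRTAP5-5 at 63.9-fold.

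Among genes that mark cell types, 7 of 20 fibroblast and matrix genes had a promoter peak (18.1 to 56.7% by interval), among them COL1A1 at 58.9-fold, COL1A2 at 34.3-fold, MMP14, S100A4, VIM and COL6A2. Of 10 epithelial genes 1 had a promoter peak, KRT8 at 7.09-fold, and of 10 lymphocyte genes 1, CD8A at 58.8-fold with an exact core. The share over all genes was 16.8%, inside the interval of the last 2 lists (1.79 to 40.4% each) and just below that of the first. A CTCF peak does not measure transcription, so the identity of the line cannot be read from these counts.

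Within genes, 10509 protein-coding genes (52.3%) held at least 1 peak, and the number went with length (Spearman 0.64 over 20098 genes). A peak was found in 18.0% of genes under 10 kb, 48.3% of those of 10 to 50 kb, 88.7% of those of 100 to 200 kb and 100% of the 323 genes of 500 kb or more. Per 100 kb the order was reversed, from 4.52 peaks in genes under 10 kb to 1.18 in those of 500 kb or more. The most peaks lay in NTM, a neuronal adhesion gene (32 in 966 kb), PDE4D, a cyclic AMP phosphodiesterase gene (31), RBFOX1, a splicing factor gene (31 in 2474 kb), and PTPRD, a receptor phosphatase gene (28). Others among the first 10 were DLG2, GSE1 and TENM2 with 24 each and IQCJ-SCHIP1, KAZN and NRXN3 with 23. GSE1 stood apart in strength, with a median fold enrichment of 45.3, against 20.8 to 34.6 in the other 9 genes. None of the 10 had a peak at its annotated start. Among genes of at least 100 kb the highest density was in NFIX, which encodes a nuclear factor I protein (13 peaks in 103 kb, or 12.6 per 100 kb), followed by gamma protocadherin genes, whose bodies overlap, and MYLK4.

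Long stretches without a peak were rare. After unsequenced bases were subtracted, 59 stretches of at least 1 Mb held no peak, 12 of them over 2 Mb. They added up to 101 Mb, or 3.56% of the sequence, and 21 of them contained unsequenced bases, such as centromeres. X had the most, 10 stretches that made up 13.75% of the chromosome, and chromosomes 18 and 20 had 0. In 26 stretches there was no protein-coding start site. Start sites were sparser than elsewhere, 4.39 per Mb against 7.09 in the genome, and without the longest stretch the value was 2.70.

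Among the 10 longest were a pair at the centromere of chromosome 9 (4.95 and 4.89 Mb of sequence), in which genes of the SPATA31A family recur. The second of the pair spans 24.19 Mb, of which 19.3 Mb are unsequenced, so its sequence is not contiguous. The 10 also held a stretch next to the centromere of chromosome 11 (2.85 Mb) and the unassembled start of chromosome 21 (2.58 Mb). Fully sequenced stretches lay on X around TENM1 (chrX:124266451-127951000, 3.69 Mb, 6 genes), PCDH11X (chrX:87868651-91487300, 3.62 Mb, 4 genes) and SLITRK2 (chrX:144486851-146885550, 2.40 Mb), and on chromosome 4 around ADGRL3 (chr4:62607851-65024500, 2.42 Mb). Another stretch of chromosome 4, chr4:58366251-61066850, held no protein-coding gene. Of 3660 genes of at least 100 kb, 271 held no peak, the longest being CFAP47 (466 kb), METTL15 (419 kb), the ephrin receptor gene EPHA3 (374.5 kb), RIT2, EPHA5 and CNTN6.

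The longest stretch was unlike the others. It covered chr6:28464151-33465050, 5.001 Mb without an unsequenced base, and holds the major histocompatibility complex with 184 protein-coding genes, among them TNF and NOTCH4. The core was not scarce there, with 75.2 matches per Mb against 55.03 in the genome, none of the 376 in a peak. The 1 Mb on its left held 17 peaks and that on its right 38. A stretch of 1.46 Mb on chromosome 17 (chr17:43384301-44848450), with MAPT, the tau gene, KANSL1 and CRHR1, had 89.5 core matches per Mb, 0 peaks, and 52 peaks in the 1 Mb to its left. A stretch of 0.753 Mb on chromosome 4 (chr4:69137851-69891050) with UGT2B17, a gene of steroid glucuronidation, had 38.5 per Mb. The start of X up to base 2737600, with DHRSX, SHOX and CSF2RA, had 68.1 per Mb. These last 3 were chosen after the values were seen, because the build hg19 holds a further copy of their sequence: alternate haplotype sequences for the histocompatibility, MAPT and UGT2B regions, and the pseudoautosomal copy for X. The list held 0 peaks on alternate haplotype sequences. Reads with more than 1 alignment were removed before peaks were sought, and whether the alternate sequences were in the index is not given in the sources used here. The absence of peaks in these 4 places therefore cannot be read as absence of CTCF, and the part of read mapping in it was not tested. Repeated sequence was not examined in the other stretches, such as that around PCDH11X or the pair on chromosome 9. Their lack of peaks cannot be read as absence of CTCF either.

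Fold enrichment was uneven on a large scale. It is a ratio to input, and DNA copy number and local read depth were not examined. Uneven values therefore cannot be read as uneven binding of CTCF. In 298 blocks of 10 Mb with at least 30 peaks, the median fold enrichment ran from 17.1 to 41.4, around a middle value of 28.6. The lowest block was chromosome 1 at 70 to 80 Mb (17.1, quartiles 12.2 and 25.3, 137 peaks), followed by chromosome 3 at 170 to 180 Mb (19.45), chromosome 3 at 160 to 170 Mb (20.6) and chromosome 5 at 0 to 10 Mb (20.6). The highest was X at 150 to 160 Mb (41.4, quartiles 32.4 and 50.7, 83 peaks). Width did not follow fold enrichment between blocks (Spearman -0.076 over 298 blocks), although it did between single peaks (0.61). In the lowest block 14.6% of peaks were at least 500 bp wide, and in chromosome 5 at 10 to 20 Mb, with a median of 20.8-fold, 18.35% were, against 6.93% of all peaks. X showed the reverse, with a median fold enrichment of 34.25, a mean width of 240 bp and 0.865% of peaks at least 500 bp wide. The share of peaks with a core went with fold enrichment between blocks (Spearman 0.48), and was 43.8% in the lowest block and 56.6% in the highest.

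**Figure D5:**
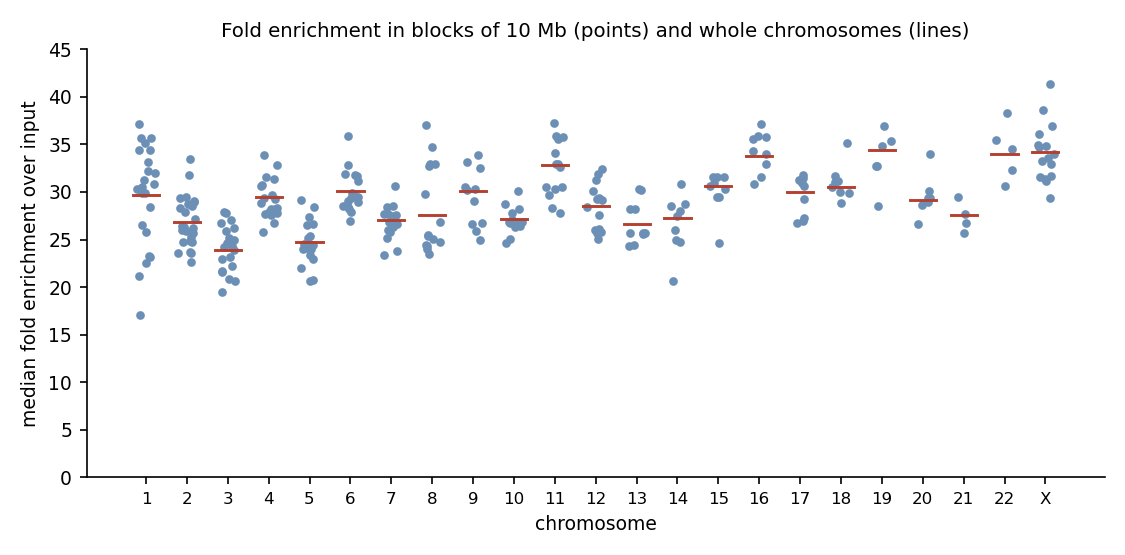
Median fold enrichment over input of CTCF peaks in blocks of 10 Mb with at least 30 peaks (blue points, spread sideways for visibility) and in each whole chromosome (red lines). Blocks of 1 chromosome differ widely: chromosome 1 runs from 17.1 to 37.1, and the highest block, 41.4, lies on X.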

How the data were processed

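CTCF ChIP and input libraries of untreated HT1080 cells (2 biological replicates each) were mapped by the authors to hg19 with Bowtie2 2.2.3. Reads with more than 1 alignment and duplicates (SAMtools 1.5) were removed, and peaks were sought with PePr on both replicates together. Labels describe paired-end and the methods single-end reads. The deposited list gives for each peak a fold enrichment, a ratio of ChIP over input computed by the authors, and the deposited p-value with its FDR. It has no header, and columns were read in broadPeak order. Reads, tracks and the lists of treated cells were not analysed here.

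Peaks were placed by their centre on GENCODE 44 lifted to GRCh37, with promoters taking precedence over coding exons, untranslated regions, introns, lncRNA genes and other genes. GC content is that of 500 bp around the centre. The work was done in Python (3.11.15) with scipy 1.17.1, pandas 2.3.3 and numpy 2.4.6, and functions were tested on simulated data. Named items are the 12 highest by fold enrichment, the 10 smallest p-values, the 10 densest windows, longest stretches, genes with the most peaks or longest without, the 5 largest runs, the 10 widest peaks and members of fixed gene lists. Members and lists were chosen with earlier results of these data known.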

Additional observations from a re-analysis of the deposited data

How the results depend on the processing

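No paired analysis was possible because the list pools both replicates, so leaving out a replicate and a replicate block were not run. Of 49 alternatives computed for 15 results, 17 stayed within the interval of the value or within 1.5 times of a count and 32 did not. The range of chromosome density and the longest stretch have no interval and are not counts. All their alternatives were placed among the 32, also those close to the main value. Limiting the list to an FDR of at most 1e-05 gave a median distance of 40.1 kb, 19.1% of neighbours under 10 kb, a 3.89-fold range of chromosome density, 35.4% of peaks outside genes, 55.8% with the core, 117 peak-free stretches, a longest stretch of 11.8 Mb and a median fold enrichment of 32.7. Limiting it to at least 10-fold enrichment gave 30.95 kb, 23.2%, 3.06, 49.8% with the core and a longest stretch of 6.85 Mb. Merging peaks closer than 1 kb gave 31.4 kb, 21.6%, a range of 3.00 and a median of 28.97-fold, and distances from centre to centre gave 23.3% under 10 kb. With whole chromosome lengths the range was 3.00-fold, and with unsequenced bases left in, the longest stretch was 24.2 Mb. Promoters of 500 bp held 4.76% of peaks, promoters of 5 kb 15.4%, and start sites of all genes 10.95%. With the centre in no annotated gene of any kind counted as outside (34.5% of peaks, promoter windows not set apart), protein-coding genes alone gave 47.4% and the whole peak 32.6%. The core was in 13.9% of peaks with no mismatch, in 83.6% with 2 mismatches, where 18.96% of genome windows have it, and in 47.4% within 200 bp. With exact cores, 20.8% of neighbours were convergent. Alternatives chosen after seeing the data gave convergent shares at 100 to 500 kb of 33.4% at the stricter FDR, 31.1% at 10-fold and 35.3% with exact cores, against 31.65%. Without the histocompatibility stretch, start sites in peak-free stretches fell to 2.70 per Mb. Searching the whole peak, also chosen after seeing the data, raised the share of peaks of at least 1 kb with a core from 17.1% to 79.3%. The list alone sets the depth of these statements: a weak site below the cutoff that made the list and a site without CTCF look the same in it.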

Other observations

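The widest peaks often carried a core, but away from their centre. Of the 82 peaks of at least 1 kb, 17.1% (10.4 to 26.6%) had a core in the 400 bp around the centre, and 79.3% (69.3 to 86.6%) anywhere in the peak, a longer span in which a chance match is also more likely. Of peaks of at least 500 bp but under 1 kb, 69.5% (67.9 to 71.1%) had a core around the centre and 73.45% (71.9 to 74.95%) anywhere. The median fold enrichment of the 82 peaks, 35.7, was near the 36.5 of the class below, and their GC content was 58.8%. A peak of 1450 bp, the greatest width in the map, lay at the promoter of ABCA2, a lipid transporter gene (chr9:139922701-139924150, 42.3-fold). Others of the 10 widest lay 23.5 kb upstream of KRT17, a keratin gene, 11.4 kb upstream of CSNK1G2, in RAB11FIP4 and 69 bp upstream of LRIG2. One of 1400 bp outside genes on chromosome 15 (chr15:22460951-22462350) held 4 cores, a number reached by 22 peaks of the map.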
